A study of Mus musculus with 8 samples.

Results

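The comparison described here set the brains of mock-treated mice with cerebral amyloid angiopathy (CAA) against those of mock-treated wild-type (WT) mice. It used 4 of the 8 RNA libraries of the series, WT mock replicates 1 and 2 and CAA mock replicates 1 and 2, and every gene with enough counts to be tested, which was 17182 of the 54532 genes in the count table. WT mock means wild-type mice given the mock treatment, and CAA mock means mice described as having the angiopathy and given the same mock treatment. The other 4 libraries came from WT and CAA mice kept under chronic restraint stress, 2 of each. They are used for the spread between replicates and for a second look at many of the genes named. The design text has the mice perfused with PBS before the brains were taken, and the part of the brain that gave the RNA is not stated. The sources used here do not name the mouse line behind the CAA label, its transgene and promoter, the background strain, the age or the sex. Nothing states that each numbered replicate was its own animal. Sex markers differ between the replicates of WT mock and of CAA stress, so those were not from the same animal. For CAA mock and WT stress this is not known. The p-values therefore cover the spread of these libraries only, part of which may be technical. Since groups of 2 allow no exact permutation p under 0.333 (two-sided), all tests below are models fitted across all genes.

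In cerebral amyloid angiopathy, amyloid-beta cut from the amyloid precursor protein settles in the walls of small arteries and capillaries of the brain and its coverings. Smooth muscle cells of the affected vessels are lost over time, and the vessels can leak or bleed. In mouse models with amyloid deposits, microglia near the deposits take up a phagocytic state with its own set of induced genes, and astrocytes raise intermediate filament genes such as Gfap.

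The 4 mock libraries held 17275201 to 18894657 counts, 99.9% of them in the genes tested. Neuronal, astrocytic, oligodendrocytic and microglial markers were present in all 4, as the brain label implies. By the non-coding RNA Xist, which is made from the inactive X chromosome, WT mock 1 was female (4575 counts) and the other 3 were male (0 to 24 counts, with 2260 to 2833 counts over 4 Y-linked genes). The libraries also differed in brain regions. The summed level of 15 striatal markers was 430 and 393 CPM (counts scaled to library size and TMM-normalised) in WT mock 1 and CAA mock 2, against 2127 and 1748 CPM in WT mock 2 and CAA mock 1. WT mock 1 and CAA mock 2 are called the low-striatum libraries. The 9 olfactory bulb markers summed to 98.5 CPM in WT mock 2 and to 12.3 to 26.4 CPM in the other 3. Where it bears on a result, the value is therefore also given within the 2 pairs of libraries alike in striatal markers, CAA mock 2 against WT mock 1 and CAA mock 1 against WT mock 2.

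Between CAA and WT brains under mock treatment, 1 gene rose and 1 fell (0.00582% each). They were 2 of the 17182 genes tested, or 0.0116%, in edgeR at an adjusted p under 0.05. Wdfy1 encodes an adaptor on early endosomes that takes part in Toll-like receptor signalling. Ngef encodes ephexin-1, a neuronal exchange factor that acts on small GTPases downstream of Eph receptors.

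Wdfy1 lay at 10.3 and 12.3 CPM in the WT mock libraries and at 55.1 and 65.7 CPM in the CAA mock libraries. Both CAA libraries were far above both WT libraries, and the gap was many times the distance between replicates. The mean rose from 11.3 ± 1.39 to 60.4 ± 7.54 CPM (SD, n = 2), a 5.34-fold rise (log2 fold change 2.42 ± 0.20, SE; edgeR adjusted p = 0.0013). The rise was 2.66 within the low-striatum pair and 2.15 within the other pair on the log2 scale. Without WT mock 1, the female library, the log2 fold change was 2.30, and without both low-striatum libraries it was 2.16. The first fit left 1 WT mock library and the second left 1 library in each mock group, so only sizes are given.

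Ngef lay at 257 and 291 CPM in the WT mock libraries and at 70.9 and 40.4 CPM in the CAA mock libraries. The CAA libraries were both below the WT libraries, with CAA mock 2 the lower. Its mean fell from 274 ± 24.1 to 55.6 ± 21.6 CPM (SD, n = 2), to 20.3% of the WT level (log2 fold change -2.30 ± 0.24, SE; edgeR adjusted p = 0.0098). The log2 difference was -2.67 within the low-striatum pair and -2.04 within the other pair. The log2 fold change of Ngef was -2.39 without WT mock 1 and -2.04 without both low-striatum libraries. Only sizes are given, since these fits left 1 library in 1 or both mock groups. The Ngef call depended on the spread borrowed from the stressed libraries. Fitted on the 4 mock libraries alone, the fold was the same and the edgeR adjusted p was 0.26. With any 1 stressed library left out, the edgeR adjusted p was 0.0548 (without WT stress 1), 0.0557 (without WT stress 2), 0.0663 (without CAA stress 1) or 0.0627 (without CAA stress 2). Per length of gene, Ngef was far above Wdfy1 in WT brains, at 65.2 and 73.9 against 1.58 and 1.88 FPKM, a level per gene length. In CAA mock 1 Ngef was above Wdfy1, at 18.0 against 8.40 FPKM, and in CAA mock 2 the levels were close, at 10.3 against 10.1 FPKM.

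The stressed libraries, which share none with the mock comparison, gave values of the same sign for both genes. Wdfy1 lay at 12.5 and 9.87 CPM in WT stress and at 54.7 and 47.3 CPM in CAA stress (log2 fold change 2.19 ± 0.20, SE; edgeR adjusted p = 0.00349). Ngef lay at 320 and 271 CPM in WT stress and at 67.7 and 70.4 CPM in CAA stress (log2 fold change -2.10 ± 0.24, SE; edgeR adjusted p = 0.0221). Again the groups did not overlap. The difference between the stressed and the mock effect was -0.23 ± 0.27 for Wdfy1 (edgeR unadjusted p = 0.41) and 0.20 ± 0.32 for Ngef (edgeR unadjusted p = 0.543) on the log2 scale, each smaller than its SE.

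**Figure D1:**
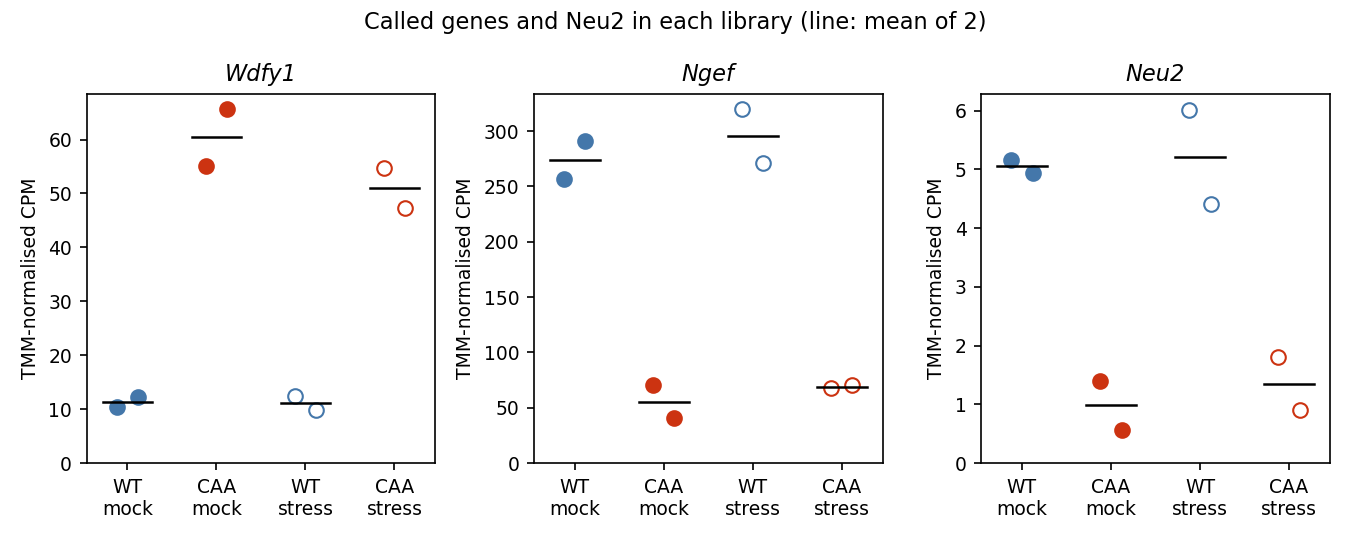
TMM-normalised CPM (y axis) of Wdfy1, Ngef and Neu2 in each of the 8 libraries by group (x axis), with filled points for mock, open points for stress and a line at the mean of 2. Wdfy1 is at 10.3 and 12.3 CPM in WT mock and at 55.1 and 65.7 CPM in CAA mock, and Ngef and Neu2 are lower in both CAA groups.

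Both genes lie on the minus strand of chromosome 1 in the mm10 build, Wdfy1 (ENSMUSG00000073643) at chr1:79702262-79776143 and Ngef (ENSMUSG00000026259) at chr1:87476834-87573870. Their leftmost bases are 7.77 Mb apart. Neu2, which encodes a cytosolic sialidase, is the neighbour of Ngef on the plus strand. It lay at 5.16 and 4.94 CPM in WT mock and at 1.40 and 0.563 CPM in CAA mock, or 96 and 88 against 24 and 10 counts. The groups did not overlap (log2 fold change -2.36 ± 0.48, SE). The difference did not pass in edgeR (adjusted p = 0.824) and passed in DESeq2 (adjusted p = 0.00998). Neu2 had a log2 fold change of -1.94 under stress (edgeR adjusted p = 0.579). Over the 8 libraries Neu2 was the gene most like Ngef, with a Pearson correlation of 0.976 between their log2 levels, and Wdfy1 was the gene most opposed to Ngef, at -0.979. Foxp1, a forkhead factor, followed Neu2 at 0.97, and the gene most like Wdfy1 was Gpr25, a receptor gene under 1 CPM in the mock libraries, at 0.964. These correlations are descriptions, since the 8 points share the difference between 4 CAA and 4 WT libraries.

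In GENCODE vM21 the exons of Ngef and Neu2 share 123 bases, which is 3.15% of the 3905 exonic bases of Ngef and 4.75% of the 2590 of Neu2. The sources used here do not say whether reads were counted by strand, so those in the shared bases cannot be assigned to either gene. The exons of Wdfy1 share 126 bases with Mrpl44, or 1.94% of the exonic bases of Wdfy1. In the deposited table Neu2 (ENSMUSG00000079434) spans chr1:87509889-87597845, so its outermost start lies inside the span of Ngef. Without counting by strand, reads from introns of Ngef could also be counted for Neu2 exons within that span. The part of such reads in the Neu2 counts was not tested, so its level is uncertain. In RefSeq the nearest start sites of Ngef and Neu2 point away from each other, at 87573870 on the minus strand and 87574027 on the plus strand. The stretch between them, chr1:87573871-87574026 in GRCm38.p6, is shown because the counts assigned to the genes on both sides of it were lower in CAA. It is written 5′ to 3′ on the minus strand, toward Ngef, and CG dinucleotides would be in capitals.
Ngef and Neu2: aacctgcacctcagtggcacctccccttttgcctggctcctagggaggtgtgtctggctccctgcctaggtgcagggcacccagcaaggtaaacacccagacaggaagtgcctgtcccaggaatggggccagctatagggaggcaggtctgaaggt
These 156 bases hold 0 CG dinucleotides, as do 13.8% of the same stretches of 32851 RefSeq promoter windows, whose median is 4.

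No other gene around them passed in edgeR. Within 5 Mb of Wdfy1 or Ngef or between them, 122 other genes were tested. Of these 57 had a positive and 65 a negative log2 fold change, with a median of -0.02. Besides 0 edgeR calls, 1 of the 122 (Neu2) passed in DESeq2, against 0.116% of all genes tested. An unadjusted edgeR p under 0.05 was found for 7 of the 122, against 4% of all genes tested. Both CAA libraries were above both WT libraries for 21 of the 122 and below them for 21 (17.2% each), against 16.2% above and 16.7% below among all genes tested. Of the 45 genes between Wdfy1 and Ngef, 23 were higher and 22 lower. Besides Neu2, the smallest p values among the 122 genes belonged to Per2, a repressor of the circadian clock (log2 fold change -0.73 ± 0.20, SE; edgeR adjusted p = 0.998), and to Slc23a3, a membrane transporter gene (-2.07 ± 0.73, SE; edgeR adjusted p = 0.998). Under stress the log2 fold change of Per2 was 0.31, and the difference of the effects, 1.04, did not pass (edgeR adjusted p = 0.995).

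**Figure D2:**
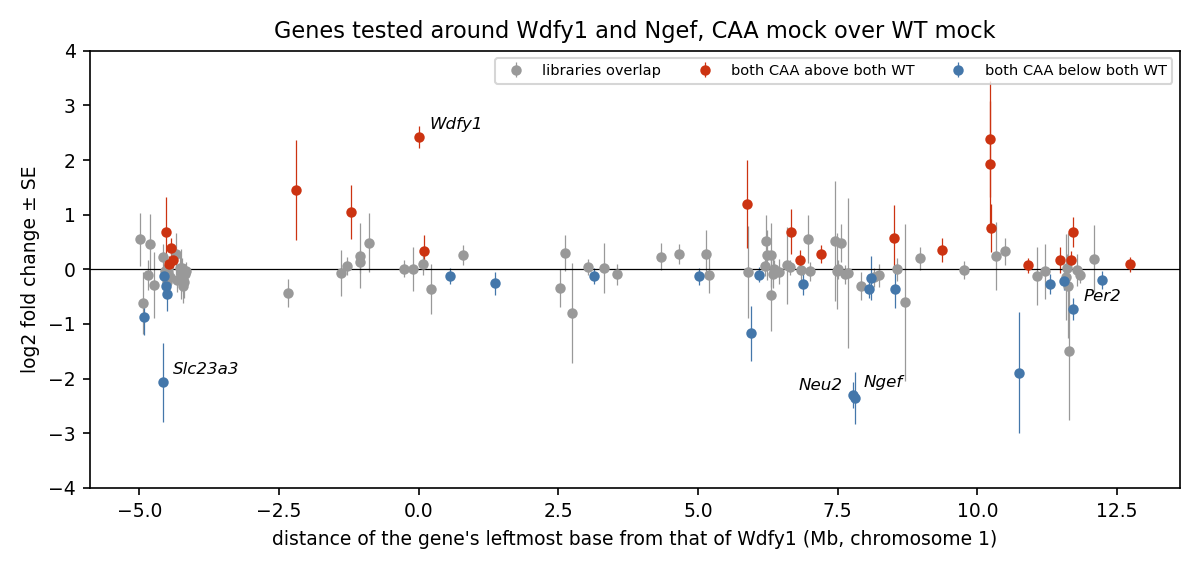
Log2 fold change of CAA mock over WT mock with its SE (y axis) for each gene tested within 5 Mb of Wdfy1 or Ngef or between them, by the distance of its leftmost base from that of Wdfy1 in Mb (x axis). Wdfy1, Ngef and Neu2 stand apart, and the median of the 122 genes other than Wdfy1 and Ngef is -0.02.

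DESeq2, run on the same genes, called 20 genes (0.116% of those tested), 5 higher (0.0291%) and 15 lower (0.0873%) in CAA. They include Wdfy1 and Ngef. The libraries did not overlap for any of the 20, and 19 had an unadjusted p under 0.05 in edgeR. Of all genes tested, 4% had such a p. Both CAA libraries were above both WT libraries for 16.2% of all genes tested and below them for 16.7%. Of the 20, 15 had the same sign in the stressed libraries, Wdfy1 and Ngef among them. In edgeR 10 of the 20 had an unadjusted p under 0.05 for the difference of the effects, against 3.46% of all genes tested. The 20 were picked by their mock values, so these counts are descriptions, and no difference passed adjustment in edgeR. On chromosome 1 lie 5 of the 20 (Wdfy1, Ngef, Neu2, Serpinb8 and Rgs4), a chromosome that holds 6.18% of the genes tested.

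Among the genes on the higher side were transcription factors of neurons and a matrix gene. Nr2f2, a nuclear receptor of caudally derived interneurons, lay at 12.5 and 8.08 CPM in WT mock and at 30.1 and 20.9 CPM in CAA mock (log2 fold change 1.31 ± 0.26, SE; edgeR adjusted p = 0.824, DESeq2 adjusted p = 0.00923). Otp, a homeobox gene of hypothalamic neurons, lay at 0.269 and 1.07 CPM in WT and at 5.26 and 2.82 CPM in CAA (2.59 ± 0.55). The imprinted gene Nnat lay at 120 and 154 CPM in WT and at 352 and 234 CPM in CAA (1.10 ± 0.24). In each of these the highest library was CAA mock 1, which also had the highest summed level of 15 hypothalamic markers, 159 CPM against 14.8, 97.1 and 40.0 CPM in WT mock 1, WT mock 2 and CAA mock 2. The part of that region in these 3 genes was not tested. In the stressed libraries the log2 fold changes were 1.02 for Nr2f2, 1.99 for Otp and 0.36 for Nnat. The median of the hypothalamic list was 0.57 there. Dcn, which encodes the matrix proteoglycan decorin, lay at 18.8 and 12.9 CPM in WT and at 32.7 and 53.6 CPM in CAA (1.44 ± 0.31; edgeR adjusted p = 0.945, DESeq2 adjusted p = 0.0063). Under stress its log2 fold change was -0.09, and the difference of the effects, -1.54, did not pass (edgeR adjusted p = 0.995).

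Genes of neurons and of vessels were among those on the lower side. Serpinb8, a serine protease inhibitor, lay at 8.28 and 10.4 CPM in WT mock and at 2.40 and 2.42 CPM in CAA mock (-1.95 ± 0.33; edgeR adjusted p = 0.539, DESeq2 adjusted p = 0.00128). Jcad, an endothelial junction gene, lay at 140 and 141 CPM in WT and at 83.0 and 80.4 CPM in CAA (-0.78 ± 0.14; edgeR adjusted p = 0.64, DESeq2 adjusted p = 0.0063). Replicates of these 2 genes were close to each other in both groups. Atp2b2, a plasma membrane calcium pump of neurons, lay at 609 and 534 CPM in WT and at 348 and 330 CPM in CAA (-0.75 ± 0.15). Lamp5, named for its likeness to lysosomal membrane proteins, lay at 177 and 153 CPM in WT and at 80.3 and 66.3 CPM in CAA (-1.17 ± 0.23). Rgs4, which shortens G protein signals, lay at 489 and 513 CPM in WT and at 294 and 241 CPM in CAA (-0.90 ± 0.22). These 3 passed in DESeq2 and not in edgeR. The potassium channel genes Kcnh7 (-1.04 ± 0.22) and Kcnh4 (-1.56 ± 0.41) were further DESeq2 calls, as were Myl4 (-1.11 ± 0.20), Stard8 (-1.07 ± 0.24) and Chrdl1 (-1.22 ± 0.29). Under stress the log2 fold changes were smaller for Serpinb8 (-0.32), Jcad (-0.29), Atp2b2 (-0.07) and Lamp5 (-0.39). These genes were chosen by their mock values, so the sizes are set side by side as a description, and none of the differences between the effects passed (edgeR adjusted p = 0.995). The next genes by p that neither tool called were Foxp1 (-0.72 ± 0.16) and Ovol2 (-1.48 ± 0.33) on the lower side and Slc29a4 (0.97 ± 0.23) and Nos1 (0.63 ± 0.17) on the higher side. Their log2 fold changes under stress were, in that order, -0.48, -0.40, 0.80 and 0.41. Xist, also among the DESeq2 calls, was high in the female library WT mock 1 alone. The other 2 calls, the pseudogene Tmem181b-ps and a copy of Ccl27a on an unplaced contig, have near-identical copies elsewhere, so their counts are uncertain.

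**Figure D3:**
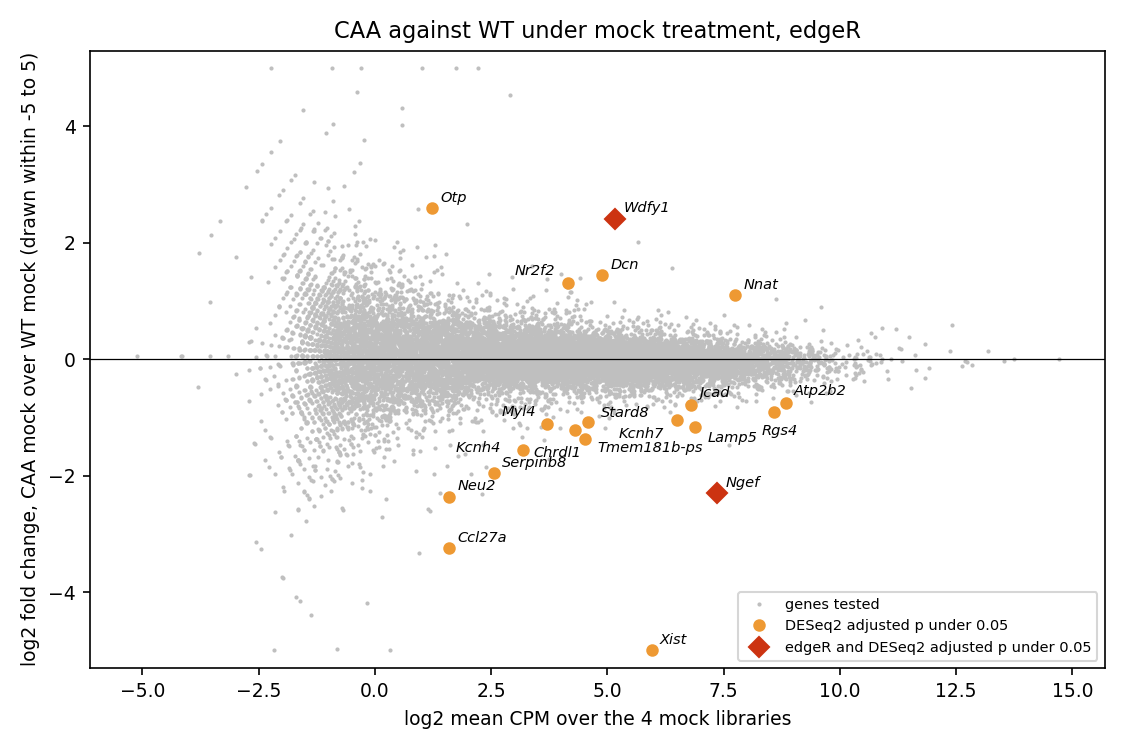
Log2 fold change of CAA mock over WT mock (y axis, drawn within -5 to 5) against the log2 mean CPM of the 4 mock libraries (x axis) for the 17182 genes tested. Wdfy1 and Ngef, called by edgeR and DESeq2, are diamonds at 2.42 and -2.30, and the other 18 DESeq2 calls are orange circles.

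The gene groups below were read from lists of markers and pathways. Of 526 listed genes that were tested, only Wdfy1 and Ngef passed in edgeR, and 5 more passed in DESeq2 (Nr2f2, Otp, Dcn, Lamp5 and Jcad). In edgeR 26 of the 526 were higher and 17 lower at an unadjusted p under 0.05, or 8.17% together. Without Wdfy1 and Ngef the share was 7.82%. Of all genes tested it was 4% (1.54% higher and 2.46% lower). The lists were chosen with earlier results of these data known, so these shares are no test of enrichment. In the groups that follow, no single gene beyond the calls just named passed either test, and values are given as descriptions. After a list's median, the brackets hold the lowest and highest median when 1 library was left out. Of the 35 lists described, 15 had medians of 1 sign in every such case and 20 did not. In whole tissue, fewer cells of a type and less RNA per cell cannot be told apart.

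The precursor of amyloid-beta did not differ beyond the spread. App lay at 1257 and 1053 CPM in WT mock and at 1072 and 1043 CPM in CAA mock (log2 fold change -0.13 ± 0.15, SE; edgeR adjusted p = 0.998), with overlapping groups. Its sign turned without WT mock 1 (0.01). The counts were assigned to mouse genes, so RNA from a transgene of another species need not appear in App. The 17 genes of amyloid precursor processing, with the secretase subunits among them, had a median log2 fold change of 0.06, with 11 higher and 6 lower (-0.016 to 0.087). Thy1, a neuronal surface protein whose promoter drives transgenes in several mouse lines, had the smallest p of the list. It lay at 505 and 434 CPM in WT and at 791 and 709 CPM in CAA (0.67 ± 0.18; edgeR adjusted p = 0.998, DESeq2 adjusted p = 0.171). The groups did not overlap, and the log2 difference was 0.49 within the low-striatum pair and 0.86 within the other. Thy1 had a log2 fold change of 0.93 under stress (edgeR adjusted p = 0.579). Prnp, another source of transgene promoters, lay at 818 and 750 CPM in WT and at 775 and 871 CPM in CAA (0.07 ± 0.14), and its sign turned without CAA mock 2 (-0.02). Of the 17 tested genes for clearance of amyloid-beta, 11 were higher, with a median of 0.09 (-0.031 to 0.21). Ide, the insulin-degrading enzyme that also cuts amyloid-beta, lay at 51.0 and 54.8 CPM in WT and at 68.1 and 111 CPM in CAA (0.76 ± 0.25; edgeR adjusted p = 0.998), and at -0.52 under stress (difference of the effects -1.28, edgeR adjusted p = 0.995). Apoe, the main lipid carrier of the brain, lay at 1330 and 1436 CPM in WT and at 2264 and 1512 CPM in CAA (0.45 ± 0.24). Its log2 fold change under stress was 0.86. The groups did not overlap for Ide or Apoe, but 1 CAA library was close to WT in each.

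The list of disease-associated microglia, the genes known to be induced near amyloid, leaned higher. Of its 24 genes 23 were tested, with a median log2 fold change of 0.37 (0.25 to 0.39), against 0.0046 over all genes tested. Itgax, Clec7a and Cst7 were near 0 in WT and had most of their counts in the CAA libraries, so they are left out of the counts that follow. Of the other 20 genes, 17 had a positive log2 fold change (50.7% of all genes tested did), with a median of 0.31. Both CAA libraries were above both WT libraries for 13 of the 20 (65%; 16.2% of all genes tested) and below them for 1. None passed in edgeR or DESeq2, and 3 of the 20 were higher and 0 lower at an unadjusted edgeR p under 0.05 (1.54% of all genes tested were higher). The median of the 20 was 0.34 within the low-striatum pair and 0.25 within the other pair. The genes left out had very few counts. Itgax, which encodes the integrin CD11c, had 1 count in each WT mock library and 7 and 25 counts in CAA mock. Clec7a, the receptor dectin-1, had 0 and 4 against 17 and 39 counts. Cst7, the cathepsin inhibitor cystatin F, had 1 and 5 against 20 and 79 counts and is named after its values were seen. CAA mock 2 was the highest of the 4 libraries in all 3. Among better measured members, the chemokine gene Ccl6 lay at 1.02 and 1.52 CPM in WT and at 3.10 and 5.86 CPM in CAA (1.82 ± 0.50). Ctsd, the lysosomal protease cathepsin D, lay at 241 and 259 CPM in WT and at 323 and 327 CPM in CAA (0.38 ± 0.14). In the stressed libraries 14 of the 20 were higher, with a median of 0.15, and Clec7a had a log2 fold change of -0.03 (difference of the effects, edgeR adjusted p = 0.995).

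Of 14 tested homeostatic microglial genes, which mark resting microglia, 7 were higher and 7 lower (median -0.01; -0.11 to 0.089). For 2 of the 14 both CAA libraries were above both WT libraries, a share near the 16.2% of all genes tested. The complement list had 12 of 16 genes higher, with a median of 0.24 (-0.0032 to 0.24). C1qb lay at 51.3 and 67.3 CPM in WT and at 88.5 and 63.9 CPM in CAA (0.36 ± 0.23), and C1qc at 37.8 and 46.9 against 65.8 and 43.5 CPM (0.37 ± 0.23). Both overlapped between groups, since CAA mock 2 lay within the WT values. Genes of antigen presentation by MHC molecules had 12 of 15 higher (median 0.15; -0.0029 to 0.49). Cd74, the invariant chain of MHC class II, had the smallest p, with 1.56 and 2.30 CPM in WT against 2.80 and 5.46 CPM in CAA (1.10 ± 0.43). The class II gene H2-Aa had 5 and 12 counts in the WT libraries, with 12 and 40 in the CAA libraries. Cd74 had a log2 fold change of -0.27 under stress (difference of the effects, edgeR adjusted p = 0.995). The type I interferon list leaned the other way, with 13 of 18 genes lower (median -0.10; -0.42 to -0.014). For 8 of the 18 both CAA libraries were below both WT libraries, against 16.7% of all genes tested. Its median was 0.03 within the low-striatum pair and -0.36 within the other pair. Of the 24 tested genes of Toll-like receptor signalling, Wdfy1 alone passed in edgeR or DESeq2. Their median was -0.0013 (-0.036 to 0.075), with 12 higher and 12 lower. Nfkbia, the inhibitor that NF-kappaB induces, had the smallest p after Wdfy1 (0.38 ± 0.18; edgeR adjusted p = 0.998).

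In the list of Eph receptors, ephrins and their effectors, 28 genes were tested, 10 were higher and 18 lower, and the median was -0.07 (-0.13 to -0.043). Apart from Ngef none passed in edgeR or DESeq2. Efnb3, a membrane-bound ephrin ligand, lay at 67.1 and 63.7 CPM in WT mock and at 103 and 96.1 CPM in CAA mock (0.60 ± 0.17; edgeR adjusted p = 0.998), with no overlap. The receptor gene Ephb6 lay at 111 and 76.6 CPM in WT and at 68.9 and 66.1 CPM in CAA (-0.47 ± 0.25). Ephb3, another receptor, was high in WT mock 1 alone, at 24.6 CPM against 6.31 to 11.2 CPM in the other 3. Its log2 difference was -1.95 within the low-striatum pair and 0.30 within the other pair.

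Excitatory cortical neuron genes were on the lower side in CAA. All 15 tested had a negative log2 fold change (median -0.34), against 49.3% of all genes tested, and both CAA libraries were below both WT libraries for 10, against 16.7%. On leaving out 1 library the median was -0.61 to -0.25. Of the 15, 5 had an unadjusted edgeR p under 0.05, against 2.46% of all genes tested that were lower at that level, and Lamp5 passed in DESeq2. Cux2, a homeobox factor of upper cortical layers, lay at 91.2 and 65.4 CPM in WT and at 53.8 and 46.4 CPM in CAA (-0.64 ± 0.22, SE; edgeR adjusted p = 0.998). Nrgn, the calmodulin-binding protein neurogranin, lay at 1169 and 945 CPM in WT and at 838 and 604 CPM in CAA (-0.55 ± 0.19). WT mock 1 was the highest library for both. The list's median was -0.67 within the low-striatum pair and -0.22 within the other, negative in both, and it was 0.0038 in the stressed libraries, where 8 of 15 genes were higher. Neither Cux2 nor Nrgn had a called difference between the effects (edgeR adjusted p = 0.995).

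Synaptic genes had 19 of 20 on the lower side, with a median of -0.24 (-0.32 to -0.17; within the pairs -0.40 and -0.08). Snap25, a core protein of vesicle fusion, lay at 2505 and 2158 CPM in WT and at 1697 and 1986 CPM in CAA (-0.34 ± 0.17). Immediate early genes, which neuronal activity induces, had 15 of 21 lower and a median of -0.53 (-0.74 to -0.11). Egr1, a zinc finger factor among them, lay at 170 and 130 CPM in WT and at 113 and 70.2 CPM in CAA (-0.72 ± 0.23; edgeR adjusted p = 0.998). The median of this list was -0.92 within the low-striatum pair and 0.06 within the other pair, so the lean was that of 1 pair. Inhibitory interneuron genes were evenly divided, with 9 of 20 higher (median -0.07; -0.41 to 0.19). Genes induced by glucocorticoids had 13 of 18 higher (median 0.34; 0.13 to 0.40; within the pairs 0.50 and 0.10), both groups being mock-treated.

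Astrocyte and myelin lists leaned higher, with the highest levels in CAA mock 2. Of 13 reactive astrocyte genes 12 were higher (median 0.32; 0.021 to 0.61, the lowest without CAA mock 2). Gfap, the astrocyte filament protein, lay at 323 and 197 CPM in WT mock and at 390 and 676 CPM in CAA mock (1.03 ± 0.30; edgeR adjusted p = 0.998, DESeq2 adjusted p = 0.0624). Both CAA libraries were above both WT libraries, and the log2 difference was 1.06 and 0.98 within the pairs. Cd44, a hyaluronan receptor, lay at 3.71 and 2.58 CPM in WT and at 5.78 and 7.72 CPM in CAA (1.10 ± 0.34). Of 14 general astrocyte genes 10 were higher, with a median of 0.15 (0.0044 to 0.21). Aqp4, the water channel of astrocyte endfeet around vessels, lay at 191 and 188 CPM in WT and at 186 and 300 CPM in CAA (0.36 ± 0.23), and without CAA mock 2 its log2 fold change was -0.03. All 15 myelin genes were higher (median 0.46; -0.012 to 0.77), and without CAA mock 2 the median was -0.012. Both CAA libraries were above both WT libraries for 2 of the 15, a share near the 16.2% of all genes tested. The summed myelin level was 10368 and 8044 CPM in WT against 10182 and 16597 CPM in CAA, so that CAA mock 1 was within the WT range. Olig1 and Olig2, transcription factors of the whole lineage, lay above WT in both CAA libraries, and the list of oligodendrocyte precursors had 10 of 11 genes higher (median 0.16; 0.095 to 0.26). Olig1 was at 218 and 205 CPM in WT against 318 and 316 CPM in CAA (0.59 ± 0.21; edgeR adjusted p = 0.998).

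Genes of vessels, where the disease sits, showed small differences of mixed sign. Of 22 endothelial and blood-brain barrier genes 17 were lower (median -0.15; -0.40 to 0.084). For 4 of the 22 both CAA libraries were below both WT libraries, a share near the 16.7% of all genes tested. Jcad, described above, and Ocln, the tight junction protein occludin (8.77 and 6.62 CPM in WT, 3.68 and 5.69 CPM in CAA; -0.71 ± 0.30), had the smallest p. Cldn5, the main claudin of the barrier, had a log2 fold change of -0.0048 with overlapping groups, and is named as a defining marker. The median of 11 vascular smooth muscle genes was -0.17 (-0.24 to 0.039), at 0.19 within the low-striatum pair and -0.41 within the other. Pericyte genes had 8 of 12 higher (median 0.26; -0.15 to 0.41), and the 15 basement membrane genes had a median of 0.06 (-0.19 to 0.33). The 18 genes of fibroblasts and meningeal matrix had a median of 0.09 (-0.50 to 0.50) that was 0.57 within the low-striatum pair and -0.43 within the other. Col3a1, a fibrillar collagen of that list, lay at 6.03 CPM in CAA mock 2 and at 0.915 to 1.68 CPM in the other 3 libraries, and its sign turned without the low-striatum libraries (-0.15).

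Of 17 neutrophil genes, the cell type named in the aim of the series, 6 were tested, of which 5 were higher (median 1.27; 0.14 to 1.27, the lowest without CAA mock 2). The count and the median keep S100a8 and S100a9, whose sparse counts were mostly in CAA mock 2. They leave out the 11 genes with too few counts to be tested, so they do not describe the whole list. Csf3r, the receptor for granulocyte colony-stimulating factor, had 104, 71, 133 and 116 counts in the order WT mock 1, WT mock 2, CAA mock 1 and CAA mock 2. Several genes that define neutrophils were at or near 0. Ctsg had 0 counts in all 4 libraries, Ly6g had 0, 0, 0 and 2, and Padi4, the enzyme that citrullinates histones in extracellular traps, had 2, 0, 0 and 0. In the same order S100a8 had 10, 2, 2 and 28 counts, and S100a9 had 5, 9, 1 and 36. Both were high in CAA mock 2 alone, and without it the log2 fold change was -1.43 for S100a8 and -2.59 for S100a9. Prtn3, the granule protease proteinase 3, had 13, 17, 47 and 24 counts (1.30 ± 0.51; edgeR adjusted p = 0.998). Border macrophage genes had 7 of 8 tested members higher (median 0.58; 0.22 to 0.89), with 15.5 and 18.5 CPM summed in WT against 19.2 and 30.0 CPM in CAA.

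**Figure D4:**
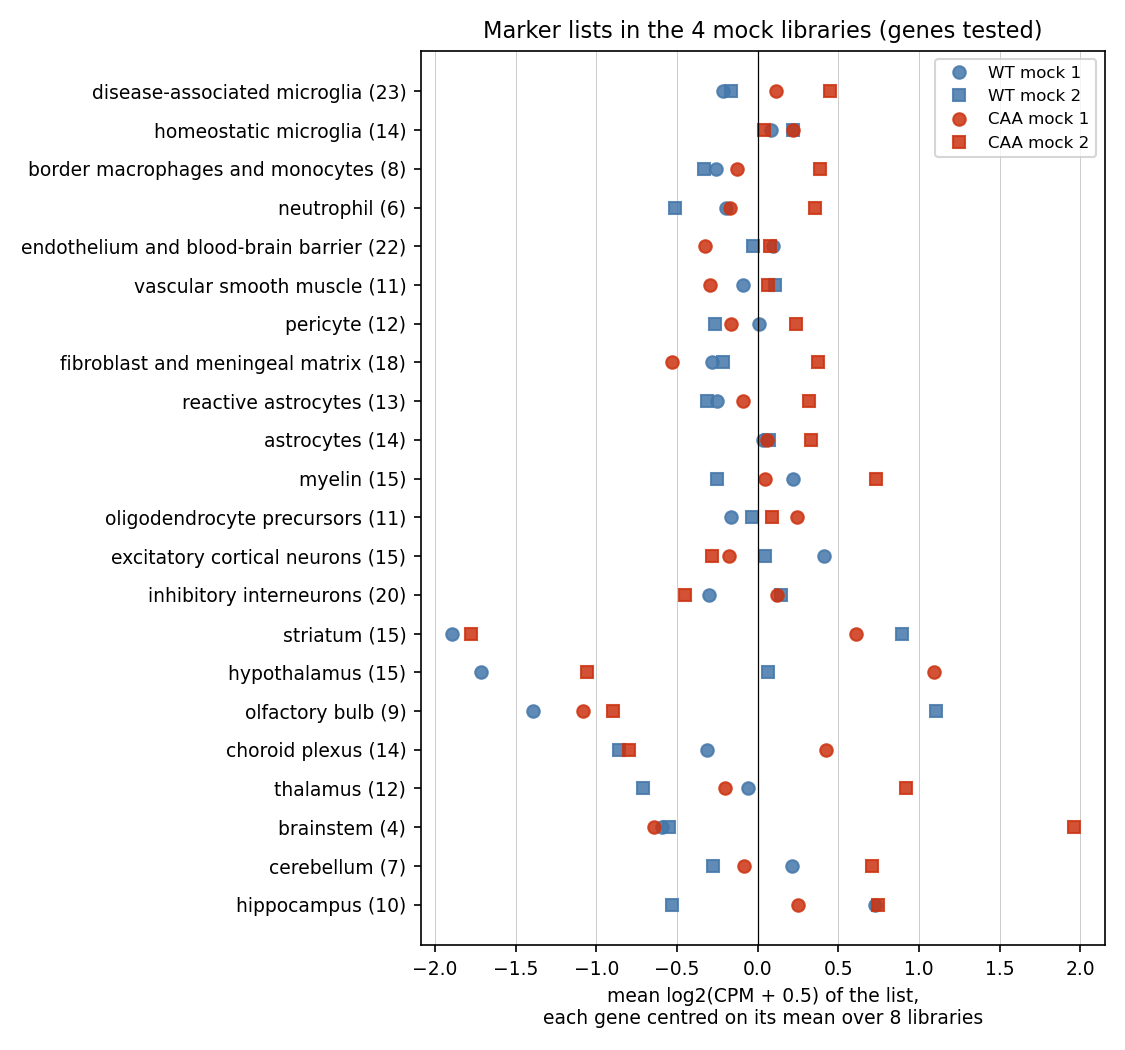
Mean log2(CPM + 0.5) of each cell type or region list in each mock library, every gene centred on its mean over the 8 libraries (x axis), with the number of genes tested in brackets. The low-striatum libraries WT mock 1 and CAA mock 2 stand apart in the striatal row. Both CAA libraries are to the right of both WT libraries for disease-associated microglia, border macrophages, neutrophils, reactive astrocytes and oligodendrocyte precursors. They are to the left for excitatory cortical neurons. The row of disease-associated microglia includes Itgax, Clec7a and Cst7.

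Markers of brain regions moved with some of these lists. Thalamic genes were higher in all 12 of 12 (median 0.73; 0.080 to 1.12), with summed levels of 281 and 220 CPM in WT and of 272 and 538 CPM in CAA, the highest in CAA mock 2. The 4 tested brainstem genes were also highest there, at 30.1 CPM against 3.5 to 5.95 CPM (median 2.45; -0.74 to 3.74). Striatal genes had a median of -0.21 (-1.88 to 1.79). Hypothalamic genes were higher in 12 of 15 (median 0.81; -0.94 to 3.87, the lowest without CAA mock 1), and Hcrt, the orexin precursor, had 226 counts in CAA mock 1 and 0 to 2 in the other 3. Olfactory bulb genes had a median of -1.83 (-2.55 to 0.70, the highest without WT mock 2), and choroid plexus genes had a median of 0.59 (0.15 to 2.31). Hippocampal genes had 7 of 10 higher (median 0.31; -0.14 to 1.32) and cerebellar genes 6 of 7 (median 0.44; -0.080 to 1.39). Ribosomal protein genes, listed as a sign of RNA composition, were higher in 30 of 30 by a small amount (median 0.18; 0.053 to 0.31), and genes of the mitochondrial genome in 4 of 13 (median -0.04; -0.15 to 0.048). CAA mock 2 was thus the library highest in thalamic, brainstem, myelin, Gfap and the sparse microglial counts, and lowest in Nrgn and Egr1. The part that dissected region plays in the neuronal, glial and microglial lists was not tested. The pairs are alike in striatal markers only. Within the low-striatum pair, thalamic markers summed to 538 CPM in CAA mock 2 and 281 CPM in WT mock 1. Within the other pair, olfactory bulb markers summed to 21.7 CPM in CAA mock 1 and 98.5 CPM in WT mock 2. For the 2 called genes the within-pair values above each set 1 library against 1, and the low-striatum pair also differs in sex.

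**Figure D5:**
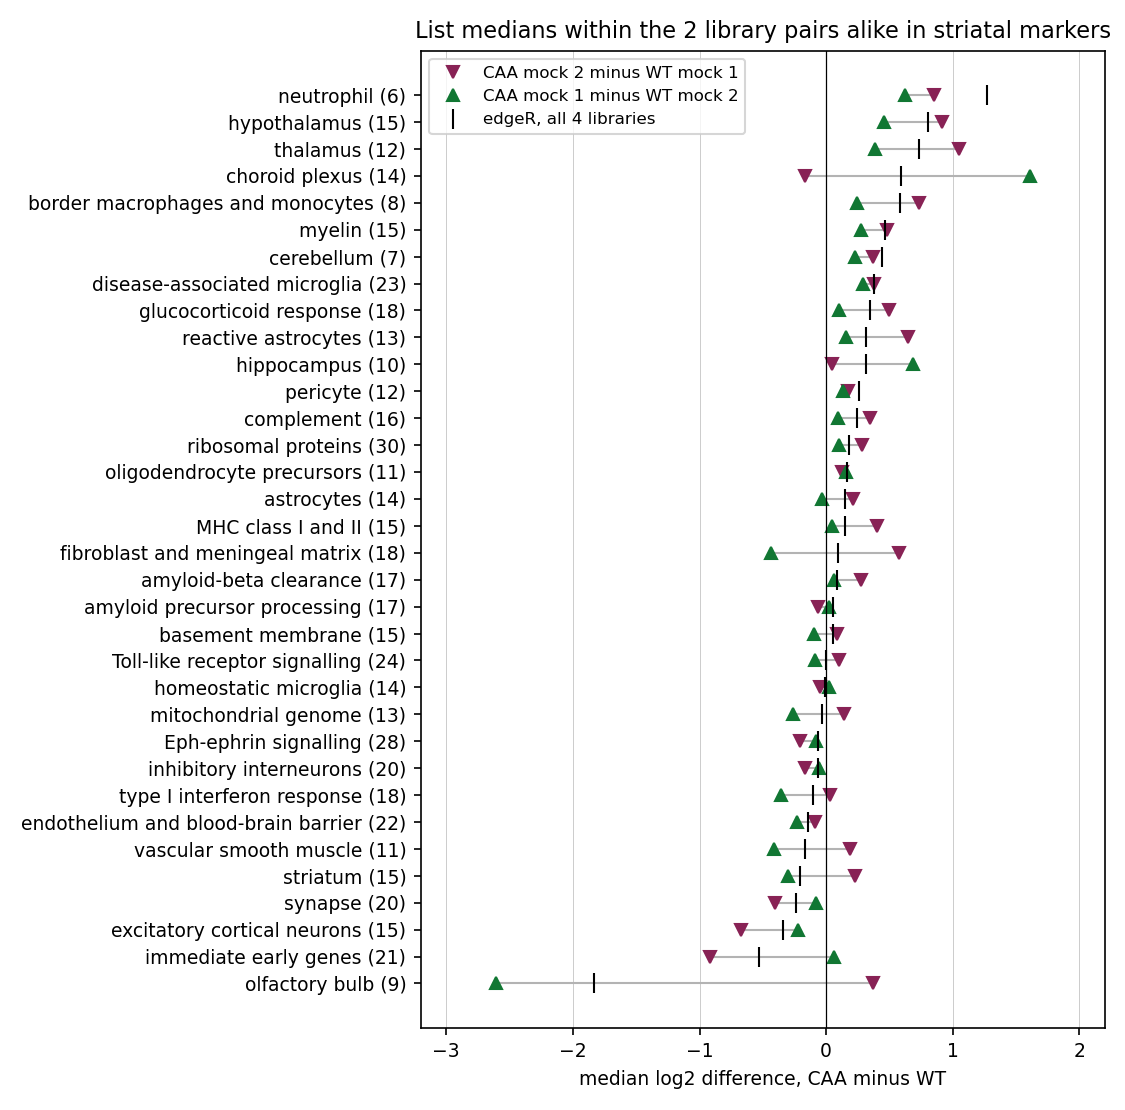
Median log2 difference of CAA minus WT (x axis) for each list with at least 6 genes tested (y axis, number in brackets), within the low-striatum pair (downward triangles), within the other pair (upward triangles) and in edgeR over all 4 libraries (bars). The disease-associated microglia list, with Itgax, Clec7a and Cst7 included, is at 0.38 and 0.29 within the pairs. The olfactory bulb, choroid plexus and fibroblast lists are among those with opposite signs.

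Set beside the stressed libraries, the mock comparison gave the same pair of edgeR calls and no gene with a called difference between the effects. Under stress, edgeR also called 2 genes (0.0116%), again Wdfy1 and Ngef. The test of the difference between the CAA effects called 0 of 17182 genes in edgeR, with 595 (3.46%) at an unadjusted p under 0.05. DESeq2 called 4 differences (0.0233%), in Xist, Fabp7, Gm12191 and the Ccl27a copy, named because they are the whole count. The female libraries by Xist were WT mock 1 and, under stress, CAA stress 1.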

How the data were processed

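Libraries were made from total RNA of mouse brain, per the labels' protocols. The authors deposited raw read counts per gene, made with HISAT2 2.0.5 and featureCounts 1.5.0-p3 on mm10 per the submitters' processing notes; the sources used here do not give strand, parameters or annotation release. They also deposited FPKM values, per the file headers in the same 8 libraries, used here only to set levels of different genes side by side and in an alternative test.

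Counts were tested with edgeR 4.0.16 (R 4.3.3). Genes were kept by filterByExpr (minimum count 10, minimum total 15), libraries were scaled by TMM, and a robust quasi-likelihood model with 1 mean per group was fitted on all 8 libraries, so that each informs the spread (residual degrees of freedom: 4). Tests were two-sided, with Benjamini-Hochberg adjustment over 17182 genes and a threshold of 0.05. SE is that of the log2 fold change, and CPM is TMM-normalised. Within-pair differences used a prior count of 2, and correlations log2(CPM + 0.5). DESeq2 1.42.0 gave no adjusted p for 2998 genes. Libraries were grouped by their titles and no mock pair was a repeat of 1 library (pairwise chi-square of 15.7 to 32.6 per degree of freedom). The scripts were tested on simulated data.

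The text names every called gene, the DESeq2 calls, up to 10 genes a side of smallest p with a mean of at least 1 CPM and no clone-style symbol, up to 4 genes per list, 3 neighbours within 5 Mb and the genes most like each called gene, though not all of these are printed, and 1 list member is not reported here. The members and the 38 lists were chosen with earlier results of these data known. The lists of sex-linked, red cell and substrain-variable genes had medians of 0.84, 0.05 and 0.31. Alternatives were DESeq2 size factors, no filter, DESeq2, the compared libraries alone, a replicate block, limma 3.58.1 on log2(FPKM + 1) and log2(FPKM + 0.1), each library left out, a term for sex, and the low-striatum libraries left out or as a term.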

Additional observations from a re-analysis of the deposited data

How the results depend on the processing

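Wdfy1 passed under all 19 alternatives, with log2 fold changes of 1.91 to 2.55, and Ngef passed under 12 (-2.76 to -1.95). The count of 2 edgeR calls under mock treatment became 82 without a filter on low counts, 20 in DESeq2, 1 with the 4 mock libraries alone, 1 with limma on log2 FPKM at a pseudocount of 1 and 1 at 0.1, and 7 with a term for sex, and it ranged from 1 to 3 when 1 library was left out. Under stress the count of 2 became 120 without a filter, 11 in DESeq2, 0 and 0 in limma and 1 with a term for sex, with a range of 0 to 2 on leaving out 1 library. For the difference of effects the count of 0 became 17 without a filter, 4 in DESeq2 and 1 without both low-striatum libraries, with a range of 0 to 1. The causes were not tested. With the replicate block the counts were 2, 2 and 0. Same-numbered mock libraries deviated in opposite directions across genes (r = -0.288), and a crossed pairing, chosen after seeing the data, gave 68 calls. Signs turned on leaving out 1 library for App (range -0.25 to 0.0063), Prnp (-0.016 to 0.15), S100a8 (-1.43 to 2.85), S100a9 (-2.59 to 2.37) and Aqp4 (-0.028 to 0.66), and without the low-striatum libraries for App (0.026), Ephb3 (0.30), S100a9 (-2.97), Col3a1 (-0.15) and Aqp4 (-0.017). Cldn5, at -0.0048, was at 0.012 without a filter, 0.00015 in limma at a pseudocount of 0.1, 0.12 with a term for sex, 0.18 without the low-striatum libraries and -0.12 to 0.12 on leaving out 1 library. Of 35 list medians 20 turned in sign when 1 library was left out, by the ranges given with each list. Itgax and Clec7a, with 0 to 4 counts in the WT mock libraries, are limited by depth.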
